A study of Mus musculus with 6 samples.

Results

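The genes described here are 10 named genes of the unfolded protein response (UPR): Ern1, Xbp1, Atf4, Atf6, Eif2ak3, Ddit3, Hspa5, Dnajb9, Herpud1 and Sdf2l1. They were chosen by name, without use of a threshold, and make up 10 of the 24062 genes in the count tables. Gene expression was measured by RNA sequencing of mouse dorsal root ganglion (DRG) and neurofibroma tissue, with 3 libraries from each of 2 genotypes. The first genotype is Nf1fl/fl;DhhCre, whose libraries are labelled as DRG tissue. In these mice the neurofibromatosis gene Nf1 is deleted in the Schwann cell (SC) lineage and plexiform neurofibromas form on the DRG. The second is labelled Runx1/Runx3 double knockout neurofibroma tumor, with the genotype given as Rx1flfl;Rx3fl/fl;DhhCre. The extraction notes write the same genotype with Nf1fl/fl added, so that both groups carry the floxed Nf1 alleles and Cre, and the second also carries floxed Runx1 and Runx3. Both share a C57BL/6-I129 background, and the age of the mice is not given in the sources used here. Dhh-Cre deletes the floxed alleles in SCs and their precursors, so bulk tissue also holds RNA of cells outside that lineage, in which no deletion is intended. The tissue label (DRG against tumor) differs along with the genotype, whereas the extraction notes and the methods of the study describe the material of both genotypes as DRG and tumors. If the tissues did differ as labelled, tissue and genotype cannot be told apart. The comparison addresses which transcripts differ in the tumor-bearing tissue when Runx1 and Runx3 are deleted together with Nf1.

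The UPR is the program by which cells sense unfolded protein in the endoplasmic reticulum (ER). The sensor IRE1, the protein of Ern1, is a kinase and endoribonuclease that removes an intron from Xbp1 RNA, after which the spliced product encodes a transcription factor for secretory pathway genes. The sensor PERK, the protein of Eif2ak3, phosphorylates the initiation factor eIF2 alpha, which slows translation in general and favours that of Atf4. The sensor ATF6 is cut in the Golgi to free a transcription factor that acts with XBP1 on chaperone genes. Cells that secrete much protein, among them plasma cells and fibroblasts laying down collagen, are known to depend on this program. Counts per gene sum all transcripts, so neither Xbp1 splicing nor the cleavage or phosphorylation of these proteins was measured.

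On the mouse genome GRCm38 (GENCODE M21 annotation), Ern1 lies on the minus strand of chromosome 11 at 106394650-106487852, and Xbp1 on the plus strand of the same chromosome at 5520659-5525893. Hspa5 lies on chromosome 2 (34771970-34777547, plus strand), Atf4 on chromosome 15 (80255184-80257541, plus strand) and Herpud1 on chromosome 8 (94386438-94395377, plus strand). Sdf2l1 lies on chromosome 16 (17130138-17132383, minus strand) and Dnajb9 on chromosome 12 (44205559-44210326, minus strand). Atf6 is at 170704674-170867771 of chromosome 1 (minus strand) and Eif2ak3 at 70844515-70905245 of chromosome 6 (plus strand). The exons of Ddit3 (chromosome 10, 127290774-127296288) share 68 bases with Mars on the other strand and 105 bases with a second Ddit3 model, and those of Eif2ak3 share 485 bases with Gm43292 on the other strand. Whether the reads were counted by strand is not given in the sources used here, so reads in these stretches cannot be assigned to 1 gene.

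Promoter windows from RefSeq (GRCm38.p6), reaching from 250 bases before to 50 bases after the start site, were matched for 9 of the 10 genes. Each was searched on both strands for letters that UPR factors and RUNX proteins are known to bind. ERSE, the ER stress response element bound by ATF6 with NF-Y, was searched as CCAAT and CCACG 9 bases apart, and ERSE-II as ATTGG and CCACG 1 base apart. The UPRE was searched as TGACGTGG and the RUNX motif as TGTGGT. Of all 32851 windows, 39 (0.119%) held ERSE, 12 (0.0365%) held ERSE-II, 222 (0.676%) held TGACGTGG and 5506 (16.8%) held TGTGGT. Among the 9 genes, Hspa5 held ERSE on the plus strand from base -65 to -47 of its start site, and Herpud1 held ERSE-II from -52 to -42. None of the 4 motifs was found in the window of Ern1 or of the other 6 genes. Sites outside these windows were not searched. The study lists Ern1 among genes with a RUNX1 binding peak in a far wider stretch around the start site. Those peaks came from chromatin immunoprecipitation sequencing (ChIP-seq) of Nf1-deficient tumor cells. The window of Ern1 (chr11:106487747-106488046, minus strand) is shown because that gene had the lowest adjusted p of the 10. Those of Hspa5 (chr2:34771840-34772139, plus strand) and Herpud1 (chr8:94386179-94386478, plus strand) are shown because they hold the matches, which are in capitals.
Ern1: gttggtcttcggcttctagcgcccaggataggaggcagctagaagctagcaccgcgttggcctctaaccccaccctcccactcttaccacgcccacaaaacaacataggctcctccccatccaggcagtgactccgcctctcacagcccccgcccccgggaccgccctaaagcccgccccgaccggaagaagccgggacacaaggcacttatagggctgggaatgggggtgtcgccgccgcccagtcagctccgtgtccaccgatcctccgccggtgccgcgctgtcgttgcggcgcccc
Hspa5: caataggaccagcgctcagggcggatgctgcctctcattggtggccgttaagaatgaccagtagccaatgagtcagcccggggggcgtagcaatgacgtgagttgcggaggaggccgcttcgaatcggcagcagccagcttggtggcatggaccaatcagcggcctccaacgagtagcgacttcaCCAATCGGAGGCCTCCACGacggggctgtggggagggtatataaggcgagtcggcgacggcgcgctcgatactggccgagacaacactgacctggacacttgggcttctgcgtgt
Herpud1: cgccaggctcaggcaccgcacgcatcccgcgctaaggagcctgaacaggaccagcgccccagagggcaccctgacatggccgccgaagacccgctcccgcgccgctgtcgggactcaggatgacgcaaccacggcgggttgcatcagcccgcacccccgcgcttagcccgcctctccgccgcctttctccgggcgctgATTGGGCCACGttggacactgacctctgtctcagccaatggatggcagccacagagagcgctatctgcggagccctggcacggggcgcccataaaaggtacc

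Library totals ranged from 12439296 to 16682194 counts, at which 3 counts equal 0.180 to 0.241 counts per 1000000 counts of the library (CPM). The levels below are CPM after TMM scaling, which adjusts the library total by a factor of 0.950 to 1.04. The lowest count of any of the 10 genes was 61 (Sdf2l1 in double knockout replicate 2; 95% exact Poisson interval 46.7 to 78.4, for counting error only), so depth did not limit their detection. As a check of the labels, Runx1 read 131, 141 and 172 CPM in the Nf1fl/fl;DhhCre libraries and 84.0, 78.9 and 185 CPM in those labelled double knockout. Runx1 was thus not lower in double knockout replicate 3, and neither Runx1 (log2 fold change -0.44, adjusted p = 0.370) nor Runx3 (-0.79, adjusted p = 0.104) passed the limma-voom test over all 6 libraries. Nf1 is floxed in both genotypes, so it does not check the difference between them (-0.06, adjusted p = 0.809, limma-voom). Without double knockout replicate 3, the log2 fold change of Runx1 was -0.85 (adjusted p = 0.0290). Runx3 read 19.9, 15.1 and 29.9 CPM against 13.5, 10.3 and 12.1 CPM, lower in every library labelled double knockout. Double knockout replicate 3 also had the highest summed DRG sensory neuron markers (15768 CPM, against 7035 and 8166 CPM in replicates 1 and 2 of that label). Counts per gene sum all exons, so loss of the floxed exons alone was not measured. The part of either in the Runx1 level was not tested. Because of Runx1 in replicate 3, the libraries of this group are named by their label only. Double knockout replicate 3 is also, by its label, the library of another sequencing run, and mouse numbers in titles and count tables are exchanged between 2 libraries within each genotype, so that the library of that run could be replicate 2. Replicate 2 of each genotype was high in skeletal muscle genes, whose 12 summed markers reached 3657 and 14155 CPM against 10.4 to 92.8 CPM in the other 4 libraries. From Xist and Ddx3y, Nf1fl/fl;DhhCre replicates 1 and 3 and double knockout replicate 1 came from females and the others from males. Each library carries a mouse number of its own, but the labels do not say how the mice were related.

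Ern1 was lower in every library labelled double knockout. Its level was 29.1, 28.4 and 33.4 CPM in Nf1fl/fl;DhhCre replicates 1 to 3, and 12.99, 15.4 and 14.6 CPM in the labelled double knockout replicates. The groups did not overlap, and the lowest Nf1fl/fl;DhhCre library lay above the highest of the other group by more than the spread within either (SD 2.72 and 1.22 CPM, n = 3 each). Ern1 fell 2.11-fold, with a log2 fold change of -1.08 (SE 0.17, 95% interval -1.47 to -0.69, adjusted p = 0.0113 by limma-voom with Benjamini-Hochberg adjustment over 15652 genes). It was the only one of the 10 genes that met both criteria of the study for a differentially expressed gene (DEG), an adjusted p below 0.05 and a change above 2-fold, which 5.36% of all genes tested met in the lower direction. The study named Ern1 a plausible direct RUNX target by crossing DEGs of these same libraries with RUNX1 ChIP-seq and open chromatin (ATAC-seq) peaks. It also reported quantitative PCR for the gene, which is not part of these counts. The test here uses libraries behind that choice, so the passing of Ern1 is not independent evidence. Leaving out 1 library at a time gave -1.12 to -0.97, and the adjusted p passed the threshold in 5 of the 6 fits and was 0.0521 without Nf1fl/fl;DhhCre replicate 1. Both DEG criteria were met in 3 of the 6 fits, since the change was under 2-fold without Nf1fl/fl;DhhCre replicate 3 (-0.97) and without double knockout replicate 1 (-0.98). Without both libraries high in muscle genes it was -1.16 (adjusted p = 0.0303). In bulk tissue, fewer cells of a type that expresses Ern1 and less Ern1 RNA per cell cannot be told apart.

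The genes of the other sensors differed by less. Atf6 read 196, 188 and 203 CPM in Nf1fl/fl;DhhCre and 159, 150 and 136 CPM in the labelled double knockout. It fell by 0.40 on the log2 scale (SE 0.11, adjusted p = 0.0481, limma-voom), a 1.32-fold change. The groups were separate, but the adjusted p lay just inside the threshold. It was above it in all 6 fits that left out 1 library (0.0894 to 0.186), while the log2 fold change stayed within -0.42 to -0.34. The adjusted p was also above the threshold with edgeR (0.0530), without a filter on low counts (0.0604) and with sex in the fit (0.0852). Without both libraries high in muscle genes the log2 fold change was -0.43 (adjusted p = 0.144, limma-voom). Eif2ak3 read 29.1, 28.8 and 28.6 CPM against 25.1, 19.0 and 20.5 CPM. These values did not overlap either, yet the log2 fold change of -0.43 (SE 0.16) did not pass (adjusted p = 0.101, limma-voom).

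Of the genes for the transcription factors downstream of the sensors, Xbp1, Atf4 and Ddit3, none passed the limma-voom test over all 6 libraries. The values of Xbp1 were separate between the groups and those of Atf4 and Ddit3 overlapped. Xbp1, the substrate of IRE1, read 85.6, 85.0 and 70.2 CPM in Nf1fl/fl;DhhCre and 65.3, 41.5 and 47.9 CPM in the labelled double knockout. The groups were separate by less than the SD of either, with double knockout replicate 1 nearest to the other genotype. Its log2 fold change of -0.66 (SE 0.19, 95% interval -1.11 to -0.21) lay at the threshold (adjusted p = 0.0508, limma-voom). It passed in 5 of 9 other settings and, of the fits without 1 library, only in that without double knockout replicate 1 (-0.80, adjusted p = 0.0280). Without both muscle-high libraries it was -0.46 (adjusted p = 0.232). Atf4, the main effector of PERK signalling, read 39.7, 45.4 and 44.1 CPM against 41.2, 46.6 and 46.5 CPM. The ranges overlapped nearly in full, and the 95% interval of the log2 fold change (-0.26 to 0.38 around 0.06) leaves out a change of 2-fold in either direction. Ddit3, which encodes CHOP, a factor linked to cell death under lasting stress, read 9.64, 8.46 and 13.2 CPM against 14.7, 10.3 and 10.2 CPM. Its values overlapped as well, with a log2 fold change of 0.17 (95% interval -0.44 to 0.77, adjusted p = 0.680). PERK signalling acts on Atf4 largely through translation, which these counts do not show.

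None of the 4 genes that UPR factors are known to induce, Sdf2l1, Hspa5, Herpud1 and Dnajb9, passed the limma-voom test over all 6 libraries. Sdf2l1, a cofactor of the chaperone BiP, read 17.4, 11.7 and 32.6 CPM in Nf1fl/fl;DhhCre and 11.2, 5.02 and 4.62 CPM in the labelled double knockout. The groups were separate by less than the SD of either, and the spread within each was wide, at 52.5% and 52.9% of the mean. Its log2 fold change of -1.57 was larger in size than that of Ern1, but with an SE of 0.52 it did not pass (95% interval -2.79 to -0.35, adjusted p = 0.0742, limma-voom). It passed with DESeq2 (-1.58, adjusted p = 0.00745). By limma-voom it passed without Nf1fl/fl;DhhCre replicate 2 (-1.89, adjusted p = 0.0358) and in none of the other 5 fits without 1 library. Hspa5, which encodes BiP itself, read 281, 222 and 422 CPM against 257, 206 and 174 CPM. The groups overlapped, and the log2 fold change of -0.51 (SE 0.25) did not pass (adjusted p = 0.200) and was -0.22 without Nf1fl/fl;DhhCre replicate 3. Herpud1, a membrane protein of ER associated degradation, read 20.4, 23.2 and 19.6 CPM against 14.7, 20.1 and 14.99 CPM. Double knockout replicate 2 lay within the other group (log2 fold change -0.36, SE 0.19, adjusted p = 0.211). Dnajb9, a co-chaperone of BiP and an established XBP1 target, read 27.7, 30.4 and 24.8 CPM against 38.0, 26.1 and 26.6 CPM. Its log2 fold change of 0.11 (95% interval -0.35 to 0.56, adjusted p = 0.735) turned to -0.03 without double knockout replicate 1, the highest library.

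**Figure D1:**
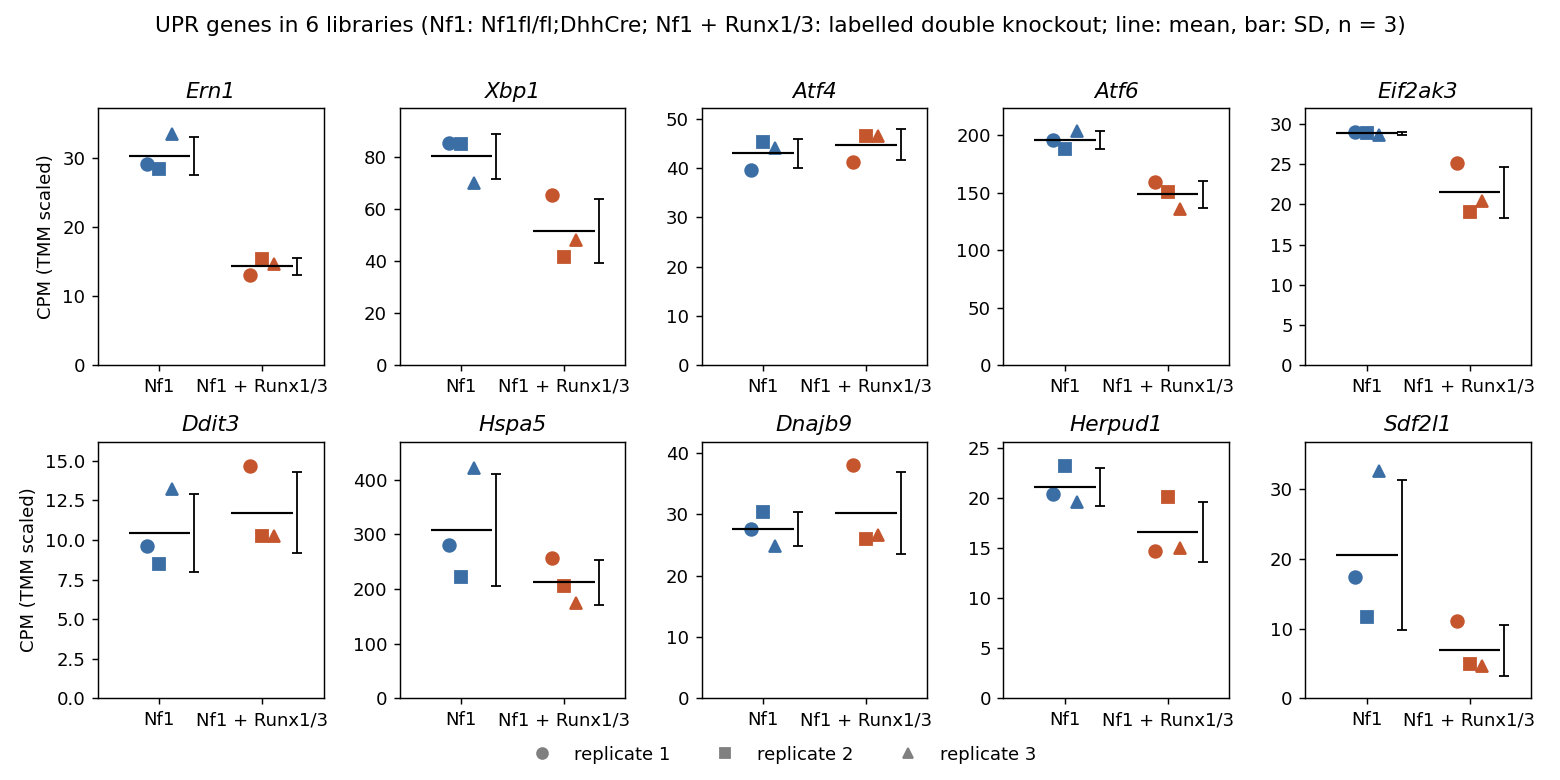
Level of each of the 10 UPR genes in CPM (vertical axes from 0, each with its own range) in the 6 libraries, with symbols for replicates 1 to 3, a line for the group mean and a bar for the SD (n = 3). Ern1 sits at 28.4 to 33.4 CPM in Nf1fl/fl;DhhCre and at 12.99 to 15.4 CPM in the labelled double knockout, while Atf4 lies in the same range in both.

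Counted over the 10 genes, 2 passed the test as lower (Ern1 and Atf6), where 8.22% of all 15652 genes tested did. None passed as higher, by limma-voom, edgeR, DESeq2 or an unadjusted limma-voom p below 0.05, where 11.1% of all genes passed limma-voom as higher. At an unadjusted limma-voom p below 0.05, 5 of the 10 were lower, beside 16.1% of all genes. edgeR called 1 gene lower (Ern1), beside 9.07% of all genes, and DESeq2 called 4 (Ern1, Xbp1, Atf6 and Sdf2l1), beside 13.3% of all genes. In 5 genes (Ern1, Xbp1, Atf6, Eif2ak3 and Sdf2l1) every labelled double knockout library lay below every Nf1fl/fl;DhhCre library, as in 20.5% of all genes. The log2 fold change was below 0 in 7 of the 10 genes, with a median of -0.42, whereas over all genes tested it was below 0 in 48.9% with a median of 0.02. Without Nf1fl/fl;DhhCre replicate 1 none of the 10 passed (4 at an unadjusted p below 0.05), in a fit that called 383 of all genes, and without double knockout replicate 3, the library whose Runx1 was not lowered, only Ern1 did.

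**Figure D2:**
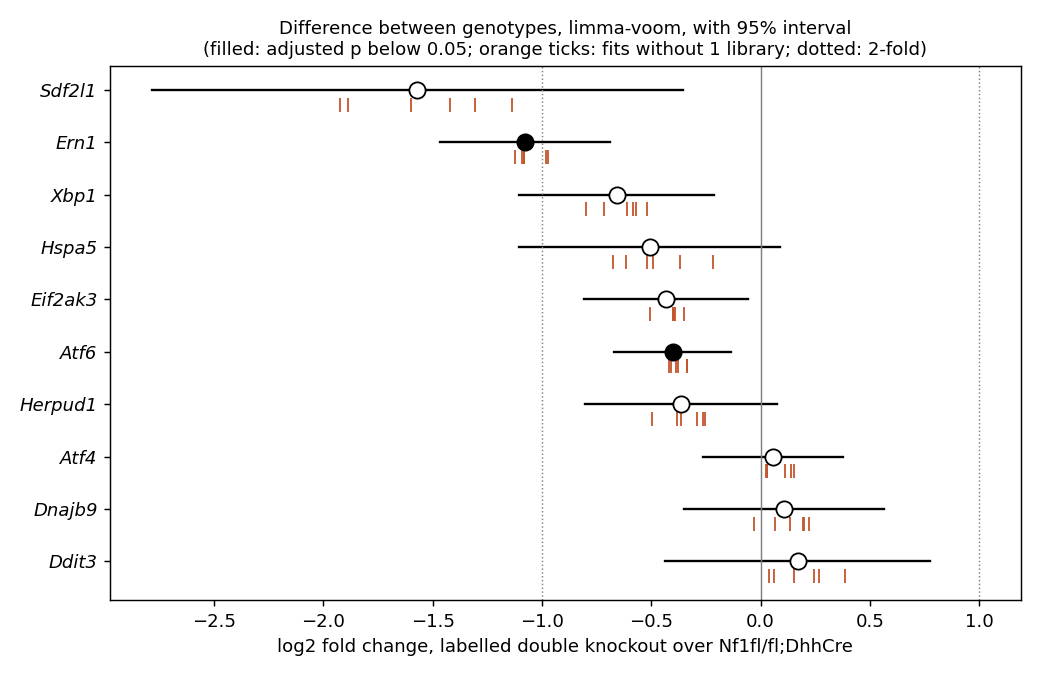
Log2 fold change of each UPR gene, labelled double knockout over Nf1fl/fl;DhhCre (horizontal axis), from limma-voom with its 95% interval as a line, a filled point where the adjusted p is below 0.05 and ticks for the 6 fits without 1 library. Ern1 and Atf6 are filled, and the interval of Sdf2l1, from -2.79 to -0.35, is the widest.

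Levels were compared between genes per kilobase of exon (CPM per kb). Hspa5 was the most abundant in both genotypes, at 72.9 ± 24.2 CPM per kb (SD, n = 3) in Nf1fl/fl;DhhCre and 50.2 ± 9.81 in the labelled double knockout. In Nf1fl/fl;DhhCre it was followed by Xbp1 (24.7 ± 2.68), Atf6 (21.2 ± 0.833), Sdf2l1 (18.6 ± 9.76) and Atf4 (18.3 ± 1.27), neighbours whose values overlapped. Dnajb9 (10.8 ± 1.10) and Herpud1 (9.04 ± 0.815), which overlapped, came next, then Ddit3 (6.09 ± 1.44) and Eif2ak3 (4.78 ± 0.0376), and Ern1 was lowest at 3.71 ± 0.333. In the labelled double knockout Ern1 was again lowest, at 1.75 ± 0.149 CPM per kb, below every library of Eif2ak3 (3.57 ± 0.529). Atf4 moved from rank 5 to rank 2 and Sdf2l1 from rank 4 to rank 8, although the values of Xbp1 overlapped those of both Atf4 and Atf6 there. The spread within a genotype differed widely among the genes, from 0.785% of the mean (Eif2ak3) to 52.5% (Sdf2l1) in Nf1fl/fl;DhhCre. Double knockout replicate 1 was the highest of its genotype for 7 of the 10 genes, and Ern1, for which it was the lowest, was not among them.

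The 5 genes whose level over the 6 libraries was most like that of Ern1, out of 10221 genes whose mean log2 CPM was 3 or more, were Rplp0 (Pearson r = 0.997), Gnpda1 (0.995), Cxcl14 (0.991), Skil (0.991) and Anp32b (0.990). This is a description over 6 libraries that share the difference in genotype. Cxcl14, a chemokine, read 27.9 to 29.8 CPM in Nf1fl/fl;DhhCre and 3.19 to 4.49 CPM in the labelled double knockout, and Skil, a repressor of TGF-beta signalling, read 223 to 263 and 77.5 to 78.7 CPM. Rplp0, a ribosomal protein gene, differed by less, at 72.9 to 77.0 against 50.3 to 53.1 CPM.

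A further 139 pathway genes, in 8 lists drawn up by role, were tested in the same fit. Of these, 15 fell (8.22% of all genes did) and 9 rose (11.1% of all genes). The log2 fold change was below 0 in 95 of them, with a median of -0.22, and in 41 every labelled double knockout library lay below every Nf1fl/fl;DhhCre library (20.5% of all genes). Fits without 1 library called fewer of these 139 genes: 1 without Nf1fl/fl;DhhCre replicate 1, 7 without replicate 3 of that genotype, 7 without double knockout replicate 2 and 11 without double knockout replicate 3. Calls over all genes dropped in the same 4 fits, from 3017 to 383, 1203, 1192 and 2032.

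Among 9 tested sensors and processing factors, including Ern1, Atf6 and Eif2ak3, 4 fell and none rose (also none by edgeR, DESeq2 or an unadjusted p below 0.05). Over all genes, 8.22% fell and 11.1% rose. Without the 3 genes already described, 2 of 6 fell. Besides Ern1 and Atf6, the genes that fell were Creb3l2 and Creb3l1. They encode ER transcription factors cut by the same proteases as ATF6 and known for collagen secretion. Creb3l2 read 374, 311 and 285 CPM against 160, 95.2 and 132 CPM (log2 fold change -1.34, SE 0.20, adjusted p = 0.0111). Creb3l1 read 73.6, 74.8 and 59.8 CPM against 38.8, 26.6 and 44.4 CPM (-0.94, SE 0.21, adjusted p = 0.0253). Both were separate between groups.

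Of 15 partners and regulators of IRE1, 2 fell and 2 rose, shares near those of all genes (8.22% and 11.1%). The phosphatase gene Ptpn1 fell from a mean of 58.0 to 26.4 CPM (log2 fold change -1.13, SE 0.20, adjusted p = 0.0141) and Bak1, of the mitochondrial death machinery, from 37.6 to 19.0 CPM (-0.99, SE 0.22, adjusted p = 0.0253). Cops5, a subunit of the COP9 signalosome, rose from 39.4 to 72.6 CPM (0.87, SE 0.17, adjusted p = 0.0170) and Usp14, a deubiquitinase of the proteasome, from 57.9 to 101 CPM (0.80, SE 0.15, adjusted p = 0.0173). All 4 also have known roles outside the UPR.

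Of 30 known XBP1 target genes, 3 fell and none rose (none by edgeR, DESeq2 or an unadjusted p below 0.05), with 26 below 0 and a median of -0.31. The share that fell is near that of all genes at limma-voom's threshold. At an unadjusted p below 0.05, 9 of the 30 were lower, beside 16.1% of all genes. The 3 serve transport into and out of the ER: Sec61a1, the translocation channel (92.8 to 57.3 CPM in the mean, log2 fold change -0.70, adjusted p = 0.0168), and the coat genes Sec24d (-0.76, adjusted p = 0.0275) and Sec31a (-0.40, adjusted p = 0.0339), the last of which passed in none of the 6 fits without 1 library (adjusted p 0.0722 to 0.131). Targets used widely as readouts of XBP1, such as Edem1 (-0.52, adjusted p = 0.0664) and Dnajb9, did not pass.

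Of 7 genes known as substrates of RNA decay by IRE1, 3 fell and 1 rose, beside 8.22% and 11.1% of all genes. edgeR called 2 of them lower, and limma-voom without double knockout replicate 3 called none lower. Scara3 (log2 fold change -1.12, adjusted p = 0.0402), Col6a1 (-0.92, adjusted p = 0.0257) and Sparc (-0.70, adjusted p = 0.0427) fell, and all 3 encode a scavenger receptor or matrix proteins. Rtn4, an ER shaping protein abundant in neurons, rose from a mean of 599.9 to 1232 CPM (1.01, adjusted p = 0.0144). Bloc1s1, the most widely used of these substrates, had a log2 fold change of -0.05 (24.1, 29.3 and 26.7 CPM against 24.4, 27.5 and 25.3 CPM, adjusted p = 0.837).

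Of 27 targets of ATF4 and CHOP, 3 rose and none fell (2 at an unadjusted p below 0.05, 0 by edgeR and 2 by DESeq2), with a median of -0.01. The share that rose is near the 11.1% of all genes. Asns, asparagine synthetase, read 10.5, 14.5 and 13.6 CPM against 35.4, 34.2 and 41.9 CPM. It rose 2.89-fold (log2 fold change 1.53, SE 0.19, adjusted p = 0.00835). Slc7a5, an amino acid transporter, rose by 1.16 (adjusted p = 0.0278) and Nars, asparaginyl tRNA synthetase, by 0.55 (adjusted p = 0.0321) on the log2 scale. The stress markers Atf3 (-0.06, adjusted p = 0.890), Trib3 and Chac1 did not pass, the last 2 at 0.385 to 5.59 CPM.

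Of 14 genes for eIF2 alpha kinases, phosphatase subunits and the exchange factor, 1 fell and none rose (none by edgeR, DESeq2 or an unadjusted p below 0.05). This was Eif2ak2, which encodes the kinase PKR that responds to double-stranded RNA and not to the ER (159, 113 and 216 CPM against 73.6, 75.2 and 82.6 CPM, log2 fold change -1.02, adjusted p = 0.0283). The share of the list that fell is near the 8.22% of all genes, of which 11.1% rose.

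Among 30 ER chaperones and folding enzymes, including Hspa5 and Sdf2l1, 4 fell and 1 rose, with 25 below 0 and a median of -0.35. Of all genes tested, 8.22% fell and 11.1% rose. The disulfide isomerase genes Txndc5 (44.3 to 24.8 CPM in the mean, log2 fold change -0.84, adjusted p = 0.0132) and P4hb (155 to 91.3 CPM, -0.76, adjusted p = 0.0178) fell, as did Erp29 (-0.71, adjusted p = 0.0342). P4hb is also the beta subunit of collagen prolyl hydroxylase. The fourth was Cnpy3 (-0.68, adjusted p = 0.0401), a chaperone of Toll-like receptors. Fkbp2, a prolyl isomerase, rose by 0.56 (adjusted p = 0.0431) but passed in none of the 6 fits without 1 library (0.0691 to 0.139). By DESeq2, 9 of the 30 were lower, beside 13.3% of all genes.

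Of 26 genes of ER associated degradation, 2 rose and none fell (1 at an unadjusted p below 0.05, 0 by edgeR and 1 by DESeq2), with a median of -0.02. The share that rose is near the 11.1% of all genes. Rnf5, a ubiquitin ligase of the ER membrane, read 21.6, 23.0 and 25.0 CPM against 42.6, 40.5 and 48.3 CPM (log2 fold change 0.92, adjusted p = 0.0122). Vcp, the extraction ATPase, rose by 0.48 (adjusted p = 0.0352).

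The calls of these named list genes differed in how many of the 6 fits without 1 library they passed. Asns passed in all 6, and Creb3l2, Ptpn1, Rtn4 and Rnf5 in 5. Creb3l1 and Txndc5 passed in 4, and Cops5, Usp14, Sec61a1 and P4hb in 3. Bak1, Sec24d, Col6a1, Sparc, Slc7a5 and Nars passed in 2 of the 6, Scara3, Eif2ak2, Erp29 and Vcp in 1, and Sec31a, Fkbp2 and Cnpy3 in none.

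**Figure D3:**
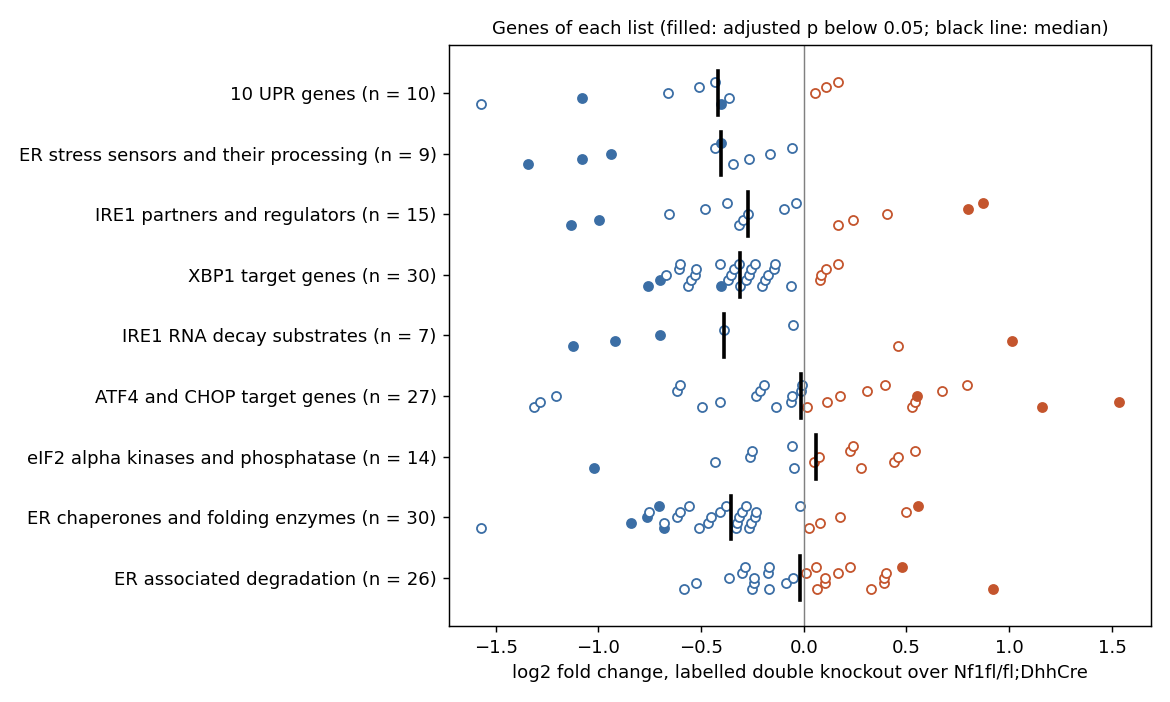
Log2 fold change, labelled double knockout over Nf1fl/fl;DhhCre (horizontal axis), of every tested gene of the 10 UPR genes and the 8 pathway lists, with filled points for an adjusted p below 0.05 (limma-voom) and a black line for the list median. Sensors (median -0.40), chaperones (-0.35) and XBP1 targets (-0.31) lie mostly below 0, whereas ATF4 and CHOP targets (-0.01) and degradation genes (-0.02) lie on both sides.

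Cell type markers moved with the genotype beside these differences. Macrophage markers fell in 11 of 13 genes, and their summed level was 1223 to 2382 CPM in Nf1fl/fl;DhhCre and 212 to 494.5 CPM in the labelled double knockout. Fibroblast markers fell in 6 of 8 genes, from 9205 to 9868 CPM down to 3418 to 5646 CPM (median log2 fold change -1.04). Markers of myelinating SCs rose in 10 of 12 genes (5284 to 6136 against 11597 to 15159 CPM) and those of DRG sensory neurons in 20 of 21 (1399 to 2936 against 7035 to 15768 CPM). General SC markers rose in 3 of 8 genes (1388 to 1577 against 1583 to 2126 CPM). Sox10, a gene of this list, was present at 195 CPM or more in all 6 libraries. Dendritic cell markers fell in 3 of 6 genes (216 to 430 against 49.6 to 71.0 CPM) and T and NK cell markers in 1 of 7 (22.2 to 62.4 against 6.07 to 6.66 CPM). No gene of the mast cell (8), neutrophil (5), endothelial (8) or skeletal muscle (12) lists passed. The part of these cell types in the differences of Ern1, Atf6 and the pathway genes was not tested.

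Plasma cells are rich in Xbp1, Hspa5 and Sdf2l1, so their markers were read as well. The summed level of 10 plasma and B cell markers was 82.3, 32.2 and 118 CPM in Nf1fl/fl;DhhCre and 102, 29.3 and 30.1 CPM in the labelled double knockout, and 1 of 8 tested genes (Prdm1) fell. The sum included Irf4, at 53.4, 11.4 and 56.6 against 86.5, 14.6 and 10.4 CPM, a gene other immune cells also express. The defining plasma cell genes Mzb1 and Tnfrsf17 had 0 to 5 and 0 to 3 counts per library and were too low to test. Igj, another plasma cell gene, was tested and read 7.07, 0.834 and 7.44 CPM against 1.35, 1.07 and 1.45 CPM. Its log2 fold change of -1.37 did not pass (adjusted p = 0.418, limma-voom), but passed in 1 of the 6 fits without 1 library. Replicates 1 and 3 of Nf1fl/fl;DhhCre and replicate 1 of the labelled double knockout were the highest of their genotype for Irf4, Sdf2l1 and Hspa5, and these are the 3 libraries from females. With sex added to the limma-voom fit, the log2 fold change of Sdf2l1 was -1.18 (adjusted p = 0.0685) and that of Hspa5 -0.33 (adjusted p = 0.280). In the same fit, that of Xbp1 was -0.59 (adjusted p = 0.0945), that of Atf6 -0.36 (adjusted p = 0.0852) and that of Ern1 -1.07 (adjusted p = 0.0152). Ern1 followed this order in Nf1fl/fl;DhhCre, with its lowest value in the male, but not in the labelled double knockout, where its lowest value was in the female.

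**Figure D4:**
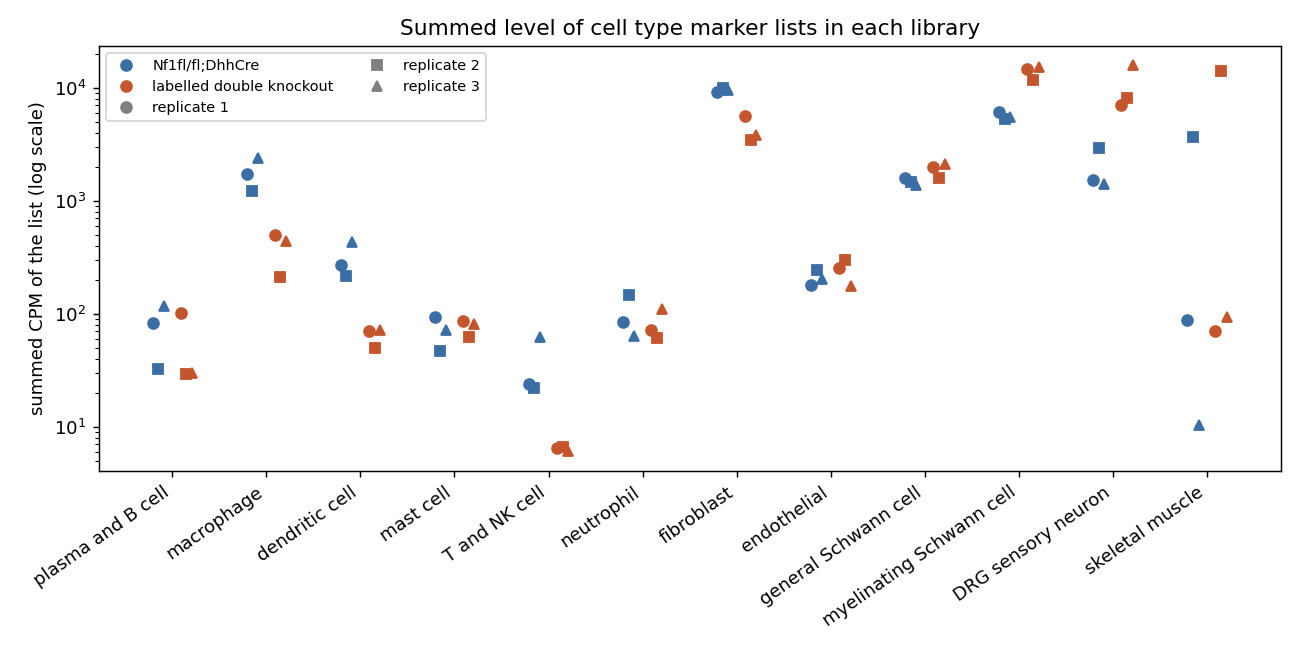
Summed CPM of 12 cell type marker lists (vertical axis, log scale) in the 6 libraries, with colour for genotype and symbols for replicates 1 to 3. Macrophage and fibroblast sums are lower, and myelinating SC and sensory neuron sums higher, in all 3 labelled double knockout libraries, while the plasma and B cell sums (29.3 to 118 CPM) overlap.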

How the data were processed

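Total RNA of DRG and tumor tissue was amplified and sequenced by the authors, who aligned the paired reads to mm10 with TopHat and counted them per gene with featureCounts; the deposited files hold 1 column of raw counts per library. The gene annotation, strand setting and treatment of multiply mapped reads are not given in the sources used here. Tables were joined by gene symbol, TMM scaled (edgeR 4.0.16) after filterByExpr (minimum count 10) and fitted with limma-voom (limma 3.58.1, R 4.3.3) on genotype, after the methods of the study, with Benjamini-Hochberg adjustment over the 15652 genes kept. Passing means an adjusted p below 0.05. DESeq2 1.42.0 and edgeR's quasi-likelihood test, other scalings and filters, quality weights and fits without each library were alternatives. Of each list, up to 3 passing genes per direction with the largest change and a mean log2 CPM of 3 or more were named. Edem1, Bloc1s1, Atf3, Trib3, Chac1, Cnpy3, Mzb1, Tnfrsf17, Igj and Irf4 were added after their values were seen. The 10 genes and all lists were chosen with earlier results of these data known. Replicate libraries differed by more than sampling noise (chi-square per degree of freedom 21.7 to 133). The limma-voom p-values set the difference between genotypes against the spread between these libraries, with the variance of each gene moderated over all genes. The limma-voom steps were also run on simulated counts with known changes and the same dispersion for all genes. Those counts held no differences of sex, sequencing run or muscle content, so they cannot show how the fit handles these.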

Additional observations from a re-analysis of the deposited data

How the results depend on the processing

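Ern1 passed in all 9 settings that kept or jointly dropped libraries (log2 fold change -1.16 to -1.07). Leaving out 1 library gave -1.12 to -0.97, with the call lost without Nf1fl/fl;DhhCre replicate 1 (-1.08, adjusted p = 0.0521). Of the 10 UPR genes, 2 passed; 1 passed with edgeR, without a filter on low counts, with sex in the fit and without both muscle-high libraries, 3 passed with DESeq2 size factors, scaling by library size only, the CPM filter and quality weights, 4 passed with DESeq2, and 0 to 2 passed without 1 library. Of the pathway list genes, 24 passed, 36 with DESeq2, 31 with quality weights, 17 with sex in the fit, 14 without both muscle-high libraries and 1 to 23 without 1 library. Over all genes 3017 passed, 4574 with DESeq2 and 383 to 3006 without 1 library, and DEGs numbered 2096, or 362 to 2285 without 1 library. The log2 fold change of Atf4 turned to -0.020 with scaling by library size only, which moved the median of all genes to -0.06, that of Dnajb9 ranged from -0.029 (without double knockout replicate 1) to 0.22 without 1 library, and that of Nf1 ranged from -0.18 to 0.043 without 1 library. The causes of these shifts were not tested. The fits with sex and without both muscle-high libraries were chosen after seeing the data. No paired analysis was possible because replicate numbers were given in accession order and each library comes from a mouse number of its own. Precision is limited by the 3 libraries per genotype and by the spread of each gene among them.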
